A study of Mus musculus with 6 samples.

Results

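The heat shock chaperones described here are 10 mouse genes taken by symbol from the deposited counts: Hspa1a, Hspa1b, Hspa8, Hspb1, Dnajb1, Hsph1, Hsp90aa1, Hsp90ab1, Hspd1 and Hspe1. All 10 were found among the 24421 gene symbols, and all 10 passed the filter on low counts that left 11144 genes for testing. The libraries were made from total RNA of endothelial cells sorted by FACS from B16F0 tumours, a melanoma line that had grown under the skin of C57BL/6 mice for 17 days. The mice received either IgG, the control antibody, or 15C4, an antibody that blocks the secreted glycoprotein LRG1, and both antibodies were injected at 50 mg/kg at intervals of 3 days. Each group had 3 libraries. The labels do not state the age or sex of the mice, whether tumours were pooled, or whether each library had its own mouse. The p-values therefore only set the difference between groups against the scatter among libraries, which may be technical. The comparison of the groups asks how the RNA of cells sorted as tumour endothelium differs when LRG1 is blocked. The markers given below show that this RNA is not from endothelial cells alone.

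Heat shock proteins bind unfolded or unfinished proteins, keep them from clumping and help them to fold. In the cytosol, HSP70 proteins work through cycles of ATP binding that J-domain partners such as DNAJB1 start and nucleotide exchange factors such as HSP110 end, and they hand some clients on to HSP90. Heat, oxidants and other damage to proteins release the transcription factor HSF1, which binds heat shock elements, inverted repeats of the unit GAA, and raises the inducible members of the family. Hspa8 and Hsp90ab1 are usually regarded as the constitutive members, Hspa1a and Hspa1b as strongly inducible ones, and Hspd1 with Hspe1 as the folding chamber of mitochondria. Tissue digestion and cell sorting are themselves known to raise heat shock and immediate early genes, in endothelial cells as in others.

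Total counts ran from 5175600 to 19572202 per library, and the 10 chaperones together took 0.652% to 0.864% of them. The labelled cell type was checked against its markers: the summed level of 20 pan-endothelial markers was between 1518 and 3224 CPM (counts scaled to a library total of 1000000) in 5 libraries and 213.8 CPM in IgG replicate 3. The 12 melanocyte and melanoma markers summed to between 24056 and 29172 CPM in every library, above the endothelial sum each time. Markers of T and NK cells summed to 605.7 CPM in IgG replicate 1, 220.3 CPM in 15C4 replicate 1 and 5.21 to 21.7 CPM in the others. Those of macrophages and monocytes ran from 0.313 CPM in 15C4 replicate 3 to 123.3 CPM in IgG replicate 1. Those of fibroblasts ran from 6.85 CPM in 15C4 replicate 2 to 188.5 CPM in 15C4 replicate 3. The antibody's target gene, Lrg1, was counted 0, 65 and 0 times in 15C4 replicates 1 to 3 and 4, 190 and 0 times in IgG replicates 1 to 3. Replicate 3 of 15C4 stood apart: 1537 of the tested genes had no count in it, against 31 to 507 in the other libraries, and the first principal component (45.7% of the variance) separated it from them. In bulk RNA of this kind, fewer cells of a type and less RNA per cell cannot be told apart, and the share of each chaperone's RNA that came from endothelial cells was not tested.

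No chaperone passed the test between 15C4 and IgG. edgeR's quasi-likelihood test gave each of the 10 genes a Benjamini-Hochberg adjusted p of 0.9997, DESeq2 called 0 of the 10, and 0 had an unadjusted edgeR p under 0.05. The background was as low: edgeR called 0% of the tested genes, DESeq2 called 0.233%, and 2.58% had an unadjusted edgeR p under 0.05. The CPM of the 2 groups overlapped for all 10 chaperones, so 0 were separated, beside 9.52% of all tested genes. The fitted log2 fold change of 15C4 over IgG was above 0 for 7 chaperones and below 0 for 3, with a median of 0.16, and over all tested genes 50.7% were above 0 with a median of 0.01. The fitted values ran from -0.65 for Hspb1 to 0.80 for Hspe1, and every 95% interval included 0.

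**Figure D1:**
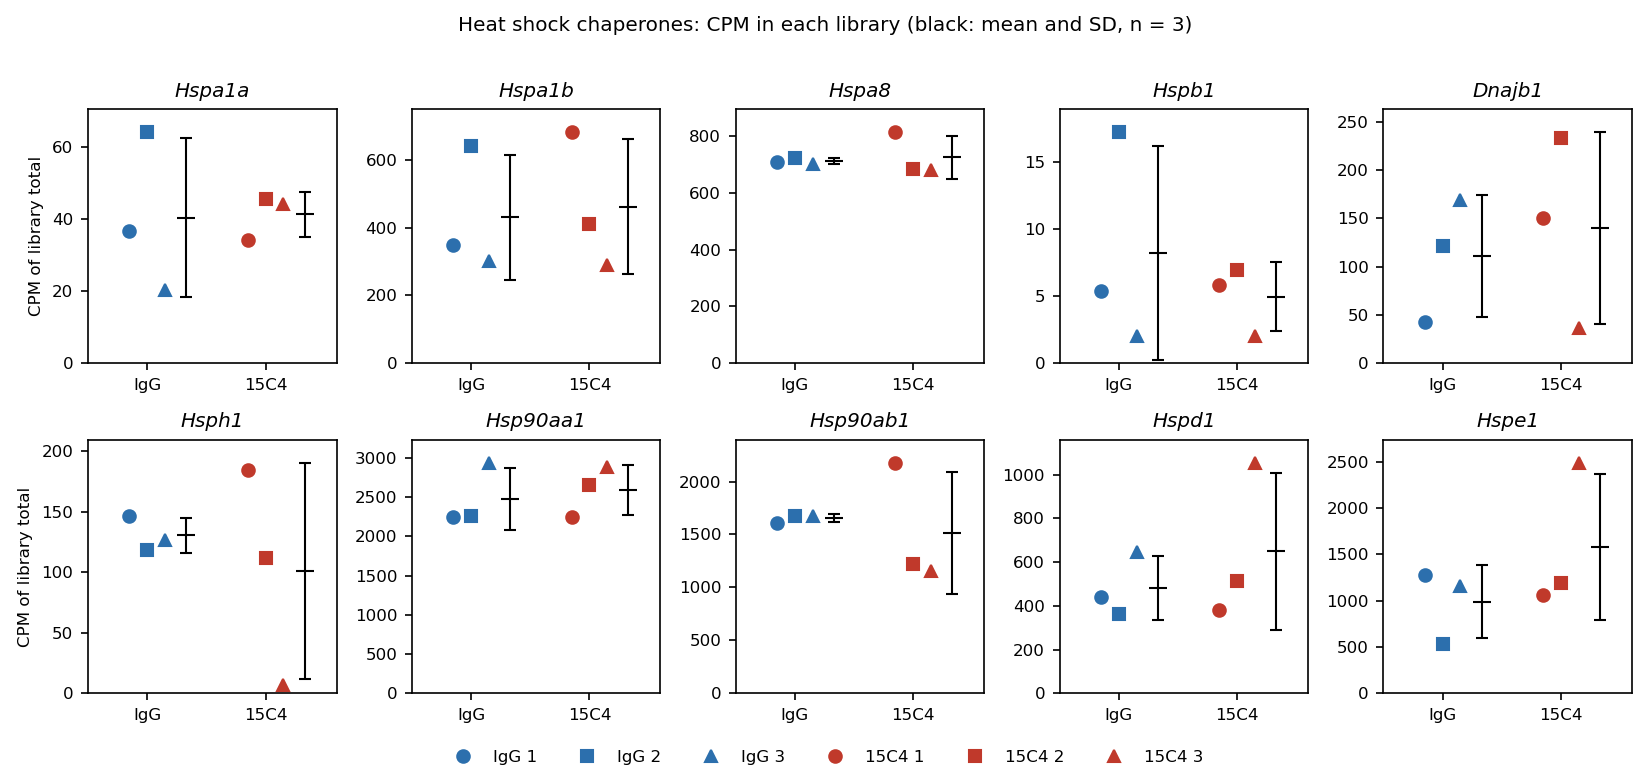
CPM of the library total (vertical axis, starting at 0 and scaled for each gene) for the 10 chaperones in each IgG library (blue) and each 15C4 library (red), with the mean and SD of the 3 libraries in black. Hspa8 lies between 680 and 812 CPM in all 6 libraries, whereas Hsph1 is at 7.35 CPM in 15C4 replicate 3.

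Hspa1a and Hspa1b encode near-identical inducible HSP70 proteins from single-exon genes on the minus strand of chromosome 17 (GRCm38, 34969190 to 34972156 and 34956436 to 34959238), 9951 bp apart. Their transcripts of 2967 and 2803 nt were 92.96% identical over 2712 aligned nt, with an identical run of 638 nt. Reads from such stretches cannot be placed on either gene, so the split between the 2 genes is uncertain. Whether such reads were counted at all is not known here, so the sum of the pair may be too low. On the opposite strand, exons of Gm20481, a gene without a row in the counts, cover 564 bp of Hspa1a. The copies also share their upstream sequence, printed here to show how alike the copies are: in the 120 bases before the start site they differed at 1 position. The sequences are from RefSeq's promoters of GRCm38.p6, 5′ to 3′ on the minus strand (Hspa1a chr17:34972157-34972276, Hspa1b chr17:34959239-34959358), and capitals mark 2 inverted heat shock units, GAANNTTC, whose first base is at position -104 from the start.
Hspa1a: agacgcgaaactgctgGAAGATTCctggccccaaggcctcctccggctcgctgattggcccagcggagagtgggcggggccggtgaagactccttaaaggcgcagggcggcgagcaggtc
Hspa1b: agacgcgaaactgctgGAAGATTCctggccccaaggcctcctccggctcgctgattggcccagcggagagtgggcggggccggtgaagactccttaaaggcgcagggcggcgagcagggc

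Hspa1b was measured at 682.2, 412.8 and 291.6 CPM in 15C4 replicates 1, 2 and 3 and at 348.0, 643.4 and 300.7 CPM in the IgG replicates. Each group held a high library, 15C4 replicate 1 and IgG replicate 2, and replicate 3 was the lowest in both. The 15C4 mean was 462 ± 200 CPM and the IgG mean 431 ± 186 CPM (SD, n = 3). Hspa1a was far lower, at 34.0, 45.4 and 44.1 CPM in 15C4 and 36.5, 63.9 and 20.3 CPM in IgG, with means of 41.2 ± 6.22 and 40.2 ± 22 CPM (SD, n = 3). The IgG libraries of Hspa1a spanned the whole 15C4 range. The fitted log2 fold changes were 0.17 (SE 0.40, 95% interval -0.75 to 1.08) for Hspa1b and 0.15 (SE 0.59, -1.21 to 1.5) for Hspa1a. Neither sign was stable: Hspa1b was at -0.13 without 15C4 replicate 1, -0.01 without IgG replicate 3 and 0.55 without IgG replicate 2, and Hspa1a was at -0.15 without IgG replicate 3 and 0.63 without IgG replicate 2. Hspa1a took 4.75%, 9.91% and 13.1% of the pair's counts in 15C4 and 9.50%, 9.03% and 6.33% in IgG, so in every library most reads of the pair were counted for Hspa1b.

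Hspa8 encodes HSC70, the HSP70 of unstressed cells, and lies on chromosome 9 (40800984 to 40810087, plus strand), with small nucleolar RNA genes inside it, of which Snord14c and Snord14d have rows of their own in the counts. It had 812.4, 683.7 and 679.5 CPM in 15C4 and 709.5, 723.0 and 701.7 CPM in IgG. These 6 values lay within a factor of 1.20 of each other, the narrowest range of the 10 chaperones. The coefficient of variation (SD over mean) was 6.80% over the 6 libraries, and 5 of the 11144 tested genes had a lower one. Among the 2318 tested genes with a mean of at least 100 CPM, where the median was 33%, 4 were lower. The log2 fold change was 0.11 (SE 0.26, 95% interval -0.47 to 0.70), and leaving out any 1 library kept it between 0.09 and 0.15. The summed counts of Hspa1a and Hspa1b were 0.882, 0.670 and 0.494 of those of Hspa8 in 15C4 and 0.542, 0.978 and 0.458 in IgG, and this ratio of inducible to constitutive HSP70 overlapped in range (exact permutation test, two-sided, p = 0.9).

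Dnajb1, the J-domain protein HSP40 that delivers clients to HSP70 and starts its ATP hydrolysis, lies on chromosome 8 (83608193 to 83612653, plus strand). It was measured at 149.9, 233.3 and 36.1 CPM in 15C4 and at 42.9, 120.9 and 168.6 CPM in IgG. Each group held a low library, 15C4 replicate 3 with 231 counts and IgG replicate 1 with 222, and the highest value was 6.46 times the lowest. Means were 140 ± 99.0 and 111 ± 63.4 CPM (SD, n = 3). The log2 fold change was 0.40 (SE 0.70, 95% interval -1.20 to 2.00) and was -0.24 without 15C4 replicate 2 and 0.87 without IgG replicate 3. Relative to Hspa8, Dnajb1 had 0.184, 0.341 and 0.0532 of its counts in 15C4 and 0.0605, 0.167 and 0.240 in IgG.

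Hsph1 encodes HSP105, the HSP110 protein that exchanges nucleotides on HSP70 and helps to dissolve aggregates, from chromosome 5 (149614287 to 149636376, minus strand). Its CPM was 184.9, 111.9 and 7.35 in 15C4 and 146.6, 118.8 and 126.7 in IgG. In 5 libraries the gene lay between 112 and 185 CPM, and in 15C4 replicate 3 it had 47 counts, 15.2 times below the next lowest library. The 3 IgG libraries were close to each other (coefficient of variation 11%), whereas the 15C4 libraries had one of 88.0%, or 34.7% without replicate 3. The log2 fold change was -0.35 (SE 0.83, 95% interval -2.25 to 1.56). Its sign rested on that library: it was 0.20 without 15C4 replicate 3 and -1.02 without 15C4 replicate 1. The ratio of Hsph1 to Hspa8 counts was 0.164 to 0.228 in 5 libraries and 0.0108 in 15C4 replicate 3.

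The low value of Hsph1 stood beside other low values of the same library. In 15C4 replicate 3, 6 of the 10 chaperones had their lowest CPM of the 6 libraries, and Hspd1 and Hspe1 had their highest. Among the 6 lowest, only Hsph1 lay far below the next lowest library. The next lowest library was 1.19 times as high for Dnajb1, 1.06 for Hsp90ab1, 1.03 for Hspa1b and 1.01 for Hspa8 and Hspb1. Of the tested genes, 1537 had no count in 15C4 replicate 3. How many of all tested genes had their lowest CPM there was not computed. The summed level of 12 immediate early genes, which rise within minutes of a stimulus, was 303.5 CPM in 15C4 replicate 3 and 708.1 to 2133 CPM in the other libraries. Hsf2, which encodes a heat shock factor, was at 0.782 CPM in 15C4 replicate 3 against 27.4 to 63.2 CPM in the others, and Hsf1 at 7.82 against 23.6 to 38.1 CPM. All heat shock factors and regulators summed to 316 CPM in 15C4 replicate 3 and 308.2 to 430.9 CPM in the others. Other small heat shock proteins summed to 151.1 CPM there and 305.6 to 763.5 CPM in the others. Sums of other HSP70 genes, nucleotide exchange factors, HSP90 cochaperones and endoplasmic reticulum chaperones were highest there. So was that of other heat-inducible genes, at 1928 CPM against 899.1 to 1390 CPM. Sums of J-domain, cytosolic chaperonin and mitochondrial genes lay within the others' range. The part of this library's RNA quality in these values was not tested.

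**Figure D2:**
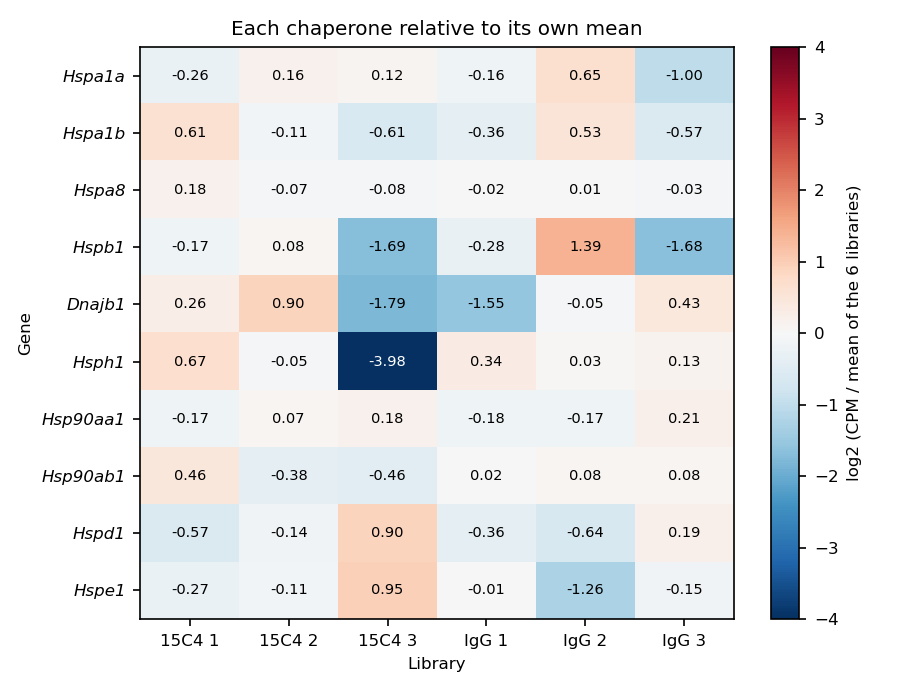
Log2 of the CPM in each library over the gene's mean of the 6 libraries, with rows for genes, columns for libraries, red for above and blue for below the mean. In 15C4 replicate 3, Hsph1 (-3.98), Dnajb1 (-1.79) and Hspb1 (-1.69) are low, while Hspd1 (0.90) and Hspe1 (0.95) are high. Similar low values are seen for Dnajb1 in IgG replicate 1 (-1.55) and for Hspb1 in IgG replicate 3 (-1.68).

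Hspb1 encodes HSP25, the mouse counterpart of human HSP27, a small heat shock protein that holds unfolded clients without ATP and also binds actin. Its gene lies on chromosome 5 (135887919 to 135889563, plus strand), and its RNA was the scarcest of the 10. The CPM was 5.83, 6.95 and 2.03 in 15C4 and 5.41, 17.2 and 2.06 in IgG, from 13 to 166 counts a library. IgG replicate 2 was the highest, and replicate 3 of each group was near 2.0 CPM. The same IgG library was the one with lymphatic endothelial markers, whose summed level was 1168 CPM there and 11.6 to 63.8 CPM in the others, and their part in its Hspb1 level was not tested. The log2 fold change was -0.65 (SE 1.22), with a 95% interval from -3.44 to 2.14, the widest of the 10. It was 0.46 without IgG replicate 2 and -1.09 without IgG replicate 3. The upstream sequences of Hspb1 (chr5:135887799-135887918, plus strand) and Hsph1 (chr5:149636337-149636456, minus strand) are shown as 120 bases that end at the start site, with inverted units in capitals. Within these bases Hspb1 has 2 pairs, at positions -117 and -97, and Hsph1 has 1, at -33, in the form TTCNNGAA. Over the whole window searched, which runs past the start, Hspb1 has 2 matches and Hsph1 has 3, and a second Hsph1 window from another start, not printed, holds the same 3.
Hspb1: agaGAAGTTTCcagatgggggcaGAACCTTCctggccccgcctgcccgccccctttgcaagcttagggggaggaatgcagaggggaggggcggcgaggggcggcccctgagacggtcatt
Hsph1: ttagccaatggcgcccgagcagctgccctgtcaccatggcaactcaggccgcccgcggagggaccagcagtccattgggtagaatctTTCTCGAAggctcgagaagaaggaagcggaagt

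The HSP90 pair had the highest mean CPM of the 10 over the 6 libraries, although Hspe1 was above Hsp90ab1 in the 15C4 mean. Hsp90aa1, the inducible HSP90-alpha on chromosome 12 (110690605 to 110702728, minus strand), had 2248, 2653 and 2879 CPM in 15C4 and 2240, 2257 and 2936 CPM in IgG. Between rank 13 and rank 19 among all genes in every library, it varied little, with a coefficient of variation of 13.0% that 88 tested genes undercut. Its log2 fold change was 0.17 (SE 0.29, 95% interval -0.50 to 0.83) and 0.02 without 15C4 replicate 3. Hsp90ab1, the constitutive HSP90-beta on chromosome 17 (45567775 to 45573271, minus strand), had 2177, 1218 and 1153 CPM in 15C4 and 1607, 1678 and 1677 CPM in IgG. The IgG libraries were tight (coefficient of variation 2.45%), and the 15C4 libraries lay on both sides of them (37.8%). Its log2 fold change was -0.06 (SE 0.30, -0.74 to 0.61), and 0.07 and 0.06 without 15C4 replicates 2 and 3. The difference in spread between the groups was not tested, and 7 of the 10 chaperones had the larger coefficient of variation in 15C4, as had 71.2% of all tested genes. Without 15C4 replicate 3, which was left out after the values were seen, the count was 3 of 10 (Hspa8, Hsph1 and Hsp90ab1), beside 53.4% of all tested genes.

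The balance of the HSP90 genes differed from library to library. Hsp90aa1 had 1.03, 2.18 and 2.5 counts for each count of Hsp90ab1 in 15C4, and 1.39, 1.34 and 1.75 in IgG. The lowest and the highest ratio were thus both in 15C4 libraries. The two-sided exact permutation test between the groups gave p = 0.4, where 0.1 is the smallest p it can give. The transcripts of the pair were 74.31% identical with a longest shared run of 33 nt, a far shorter run than in the HSP70 pair.

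Hspd1 and Hspe1 encode HSP60 and HSP10, the barrel and the lid of the mitochondrial chaperonin, and stand head to head on chromosome 1 (Hspd1 55077835 to 55088243, minus strand; Hspe1 55088132 to 55091307, plus strand). Their annotated exons overlap by 112 bp on opposite strands. No source used here says whether the counting used strand, so reads in those 112 bp may belong to either gene. RefSeq's promoters hold 2 windows of 300 bases for Hspd1. The window chr1:55087883-55088182 has 285 bases in common with that of Hspe1, on the opposite strand. The other, chr1:55088194-55088493, shares 4 bases with it and holds 0 matches to the heat shock units. The stretch printed for Hspe1 (chr1:55088028-55088147, plus strand, ending at its start site) is shown because it holds 4 alternating heat shock units in a row, marked in capitals and beginning at position -89, the longest run in the members' windows shown here.
Hspe1: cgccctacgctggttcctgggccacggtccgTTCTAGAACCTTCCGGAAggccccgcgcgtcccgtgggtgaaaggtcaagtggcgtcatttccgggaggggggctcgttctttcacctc

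Hspe1 had the highest fitted fold change of the 10, and Hspd1 the next. Hspe1 was measured at 1065, 1190 and 2490 CPM in 15C4 and 1274, 537.3 and 1161 CPM in IgG. A low IgG replicate 2 and a high 15C4 replicate 3 set the extremes, and the remaining 4 libraries lay between 1065 and 1274 CPM. Means were 1582 ± 789 and 990.5 ± 397 CPM (SD, n = 3), and the log2 fold change was 0.80 (SE 0.49, 95% interval -0.32 to 1.91). Without 15C4 replicate 3 it was 0.22, and without 15C4 replicate 1 it was 1.06.

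Hspd1 had 380.4, 513.2 and 1055 CPM in 15C4 and 441.3, 363.5 and 646.7 CPM in IgG. As for Hspe1, the highest library was 15C4 replicate 3 and the lowest IgG replicate 2. Its log2 fold change of 0.56 (SE 0.47, 95% interval -0.53 to 1.64) was -0.08 without 15C4 replicate 3 and 0.86 without 15C4 replicate 1. The ratio of Hspe1 to Hspd1 counts was 2.80, 2.32 and 2.36 in 15C4 and 2.89, 1.48 and 1.80 in IgG, a range narrower than that of either gene (two-sided exact permutation p = 0.5). Hspa9, the mitochondrial HSP70 that works upstream of this chaperonin, had 465, 361 and 248 CPM in 15C4 and 433, 488 and 514 CPM in IgG, and its value in 15C4 replicate 3 was the lowest rather than the highest.

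**Figure D3:**
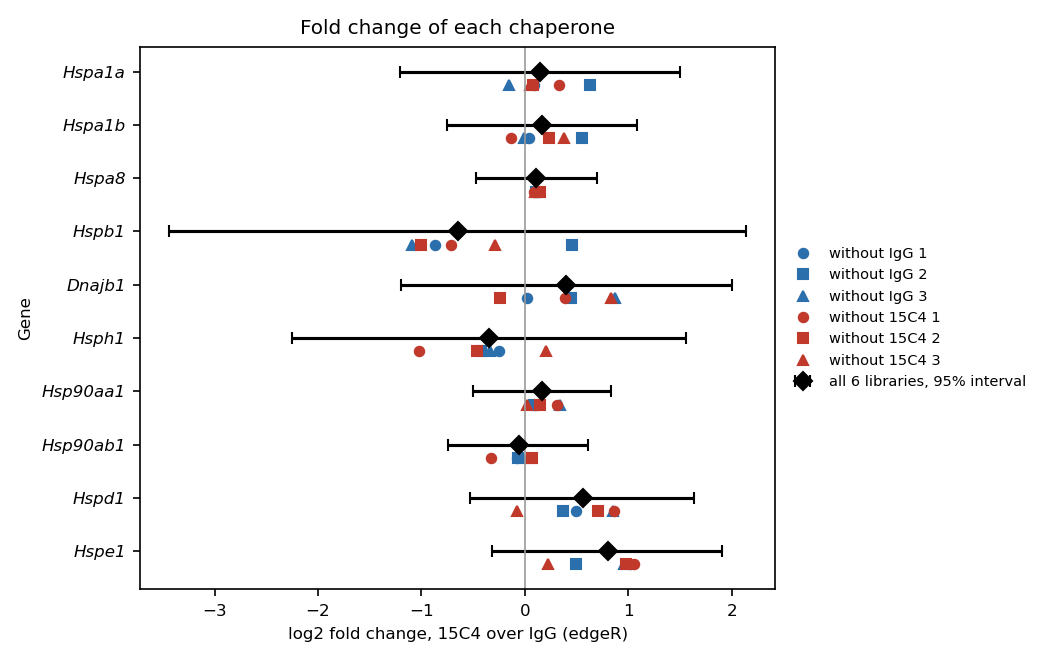
Log2 fold change of 15C4 over IgG from edgeR (horizontal axis) for each chaperone, as black diamonds with 95% intervals for all 6 libraries and as coloured symbols for the fits that leave out 1 library. Every interval includes 0, and the value of Hspd1 moves from 0.56 to -0.08 without 15C4 replicate 3.

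Partner ratios take the library total out of the comparison, since both genes share it. None of the 6 ratios computed differed between the groups by the two-sided exact permutation test, whose adjusted p over the 6 was 0.9 for each. With 3 libraries against 3, the smallest p this test can give is 0.1, so it could not reach 0.05 for any ratio. The widest relative ranges were those of Hsph1 and Dnajb1 to Hspa8, with the lowest value of both in 15C4 replicate 3.

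**Figure D4:**
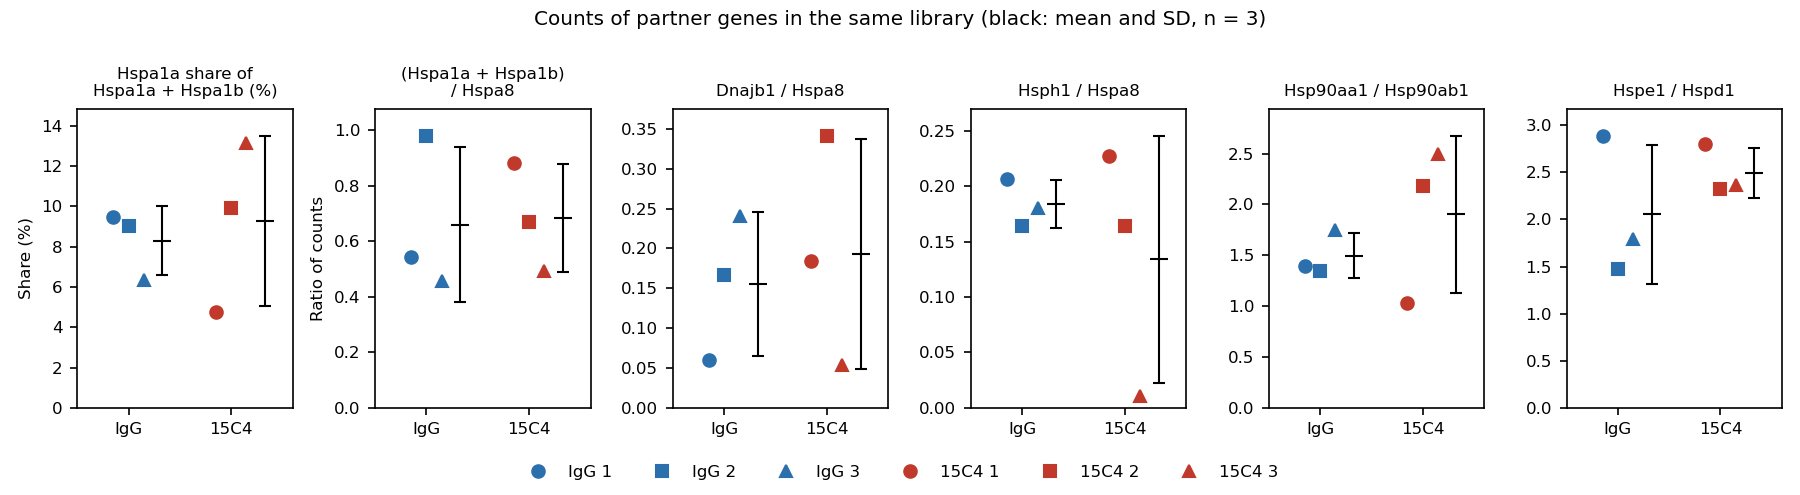
Counts of one chaperone over its partner within each library (vertical axes start at 0; the first panel is a percent share, the others are ratios) for IgG in blue and 15C4 in red, with mean and SD of 3 libraries in black. The groups overlap in all 6 panels, and the Hsph1 to Hspa8 ratio of 15C4 replicate 3 is 0.0108.

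Levels of different genes were compared per kilobase of annotated exon (GENCODE M21), as the mean ± SD of the 6 libraries. Hspe1 was highest at 873 ± 438 CPM per kb, then Hsp90aa1 at 645 ± 83.6 and Hsp90ab1 at 529 ± 124. Hspd1 (215 ± 98.6), Hspa8 (167 ± 11.4) and Hspa1b (159 ± 61.9) formed a middle tier, and Dnajb1 followed at 39.1 ± 23.7. Hsph1 (16 ± 8.17), Hspa1a (13.7 ± 4.88) and Hspb1 (6.38 ± 5.42 CPM per kb) were lowest. The places of Hspa1a and Hspa1b are uncertain, since reads from their identical stretches cannot be placed on either gene. Neighbours in this order kept their places in all 6 libraries only for Hspa1b above Dnajb1 and Hspa1a above Hspb1. In the other 7 pairs of neighbours the order held in 4 or 5 of the 6 libraries. The exon lengths include retained introns, which lowers the value of genes such as Hspa8 and Hsph1 on this scale.

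RefSeq windows from 250 bases before to 50 after the start were at hand for 7 of the 10 genes, 10 windows in all since Dnajb1, Hsph1 and Hspd1 have 2 each, and were searched for motifs on both strands. A gene is counted where any of its windows has a match. GAANNTTC or TTCNNGAA was found in 6 of the 7 genes (Hspa1a, Hspa1b, Hspb1, Hsph1, Hspd1 and Hspe1), in 7 of their 10 windows and in 15.1% of 32851 mouse promoter windows of the same length. Dnajb1 had no match in either window. The longer element of 3 alternating units was found in 3 of the 7 (Hsph1, Hspd1 and Hspe1), in 4 of the 10 windows and in 0.603% of all windows. Hspd1 and Hspe1 share 1 stretch of DNA, so these are not separate occurrences, and the 3-unit match of Hsph1 lies after its start site, outside the bases printed. GGGCGG, the GC box, was in 10 of the 10 windows (35.7% of all windows), CCAAT in 6 (37.4%), and TATAAA in 0 (13.6%). A match describes letters only and is not evidence of binding.

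No gene of the wider chaperone network passed the test either. Of 122 companion genes in 11 lists, 112 were tested, 0 were called by edgeR in either direction and 0 by DESeq2, and 2 had an unadjusted edgeR p under 0.05. Their median log2 fold change was 0.08, with 65 above 0 and 47 below, and 8 had groups that did not overlap. These 8 are 7.14% of the companions tested, beside 9.52% of all tested genes, and the 2 with an unadjusted p under 0.05 are 1.79%, beside 2.58%. Neither share is above that of all tested genes. The lists were chosen with earlier results of these data known.

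Among regulators, the 3 tested genes had a median of -0.57. Hsf1, the main heat shock factor, had 33.3, 23.6 and 7.82 CPM in 15C4 and 23.8, 37.2 and 38.1 CPM in IgG, with a fitted log2 fold change of -0.57 (SE 0.69), and 15C4 replicate 3 was again the lowest. The 14 tested J-domain genes had a median of 0.38, 10 above 0. Dnaja2, a cytosolic J-domain partner of HSP70, had the smallest p of all companions, with 272, 472 and 575 CPM in 15C4 against 243, 171 and 209 CPM in IgG. Its groups did not overlap, and its log2 fold change of 1.20 (SE 0.40, edgeR adjusted p = 0.9997) stayed between 0.89 and 1.49 when any 1 library was left out. Dnajc2, a ribosome-bound J-domain protein, lay the other way without overlap: 70.4, 84.9 and 84.6 CPM in 15C4 and 162, 90.2 and 184 CPM in IgG (-0.77, SE 0.42).

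Other HSP70 genes, 8 of them tested, had a median of 0.12. Hspa5, the endoplasmic reticulum HSP70 known as BiP, had 1193, 1736 and 1778 CPM in 15C4 and 1555, 1202 and 862 CPM in IgG, for a log2 fold change of 0.49 (SE 0.35). Hspa14, a ribosome-associated member, had 41.3, 17.3 and 39.9 CPM in 15C4 and 71.9, 52.1 and 53.9 in IgG, without overlap (-0.77, SE 0.55). Nucleotide exchange factors and HSP70 cofactors had 7 of 8 genes above 0 and a median of 0.35. Bag3, which links HSP70 to selective autophagy and is a heat shock gene itself, had 91.8, 136 and 163 CPM in 15C4 and 111, 140 and 71.6 CPM in IgG (0.40, SE 0.43). Bag1 was at 0.58 (SE 0.50), and at -0.15 in 1 of the fits that left out a library.

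The 19 HSP90 cochaperones had a median of -0.10, with 8 above 0 and 11 below. Chordc1 (1.07, SE 0.53) and Fkbp5, a glucocorticoid-induced immunophilin (-1.30, SE 0.84), had the smallest p of that list, and the groups overlapped for both. The 14 tested subunits of TRiC/CCT, the cytosolic chaperonin for actin and tubulin, and of prefoldin had a median of -0.03, as did the 12 mitochondrial chaperones and proteases. Cct4 was at 0.67 (SE 0.40) and Hscb, which serves iron-sulphur cluster assembly, at 1.36 (SE 0.72). Small heat shock proteins other than Hspb1 had a median of -0.34 over 5 tested genes, with Hspb8 at 0.91 (SE 1.00).

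Of 6 other heat-inducible genes, 4 were above 0, and the list ran from -3.67 to 1.07. Cacybp had 407, 331 and 1040 CPM in 15C4 and 333, 257 and 420 CPM in IgG (0.94, SE 0.51), with 15C4 replicate 3 highest, as for Hspd1 and Hspe1. The 11 chaperones of the endoplasmic reticulum had a median of 0.32, with 8 above 0. Dnajb9 was at 1.25 (SE 0.67) and P4hb, a protein disulphide isomerase, at -0.51 (SE 0.32). Their summed level was 11633 CPM in 15C4 replicate 3 and 6105 to 8255 CPM in the other libraries. The 12 immediate early genes had a median of 0.40 and 7 above 0, with Dusp1 at 157, 461 and 22.8 CPM in 15C4 and 109, 103 and 132 CPM in IgG.

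**Figure D5:**
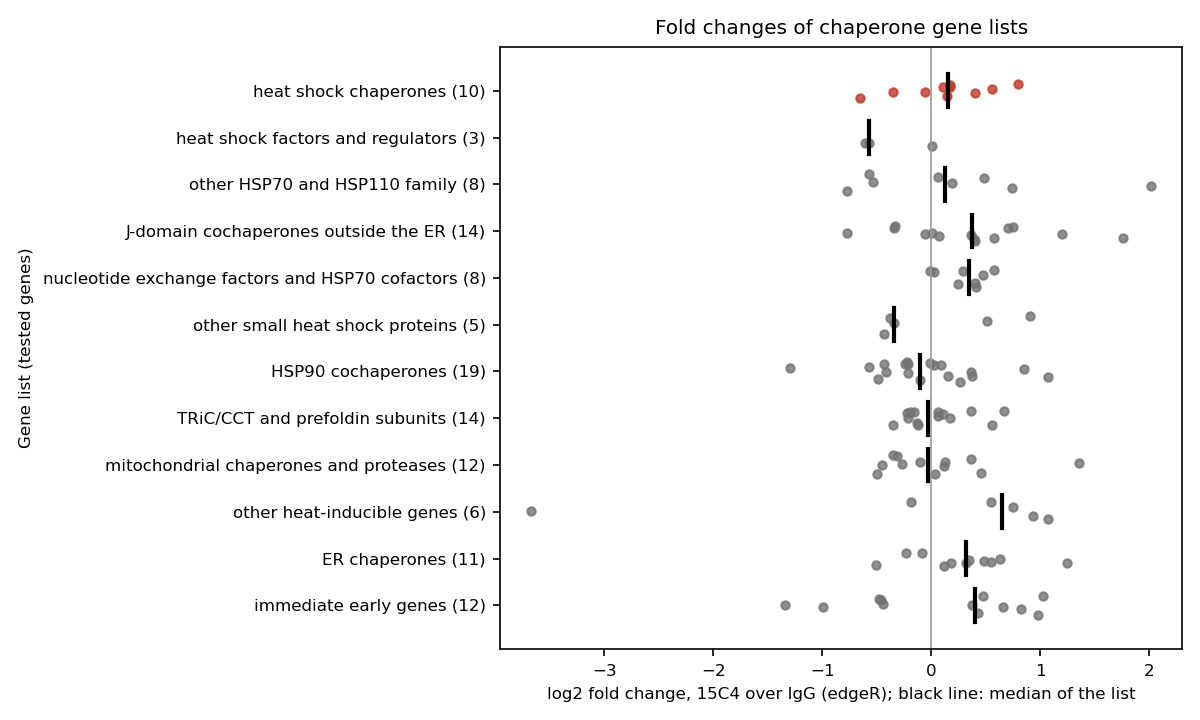
Log2 fold change of 15C4 over IgG from edgeR (horizontal axis) for the tested genes of each list, with the 10 heat shock chaperones in red, companion lists in grey and a black line at each list's median. The chaperones lie between -0.65 and 0.80 with a median of 0.16, and none of the genes drawn passed the test.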

How the data were processed

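The authors deposited, per the file headers and the labels, gene counts of 6 libraries (3 for each antibody) made by cDNA amplification and the Nextera XT kit. The submitters' processing notes name fastp, STAR 2.5b, featureCounts and DESeq2 and the builds mm10 and mm9 without their roles. Neither the annotation nor the strand setting is stated there. Because cDNA was amplified by PCR and no molecular identifiers are mentioned, counts are not independent molecules. A second table deposited by the authors gives normalised values (score), log2 fold changes and p-values.

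CPM is the count scaled to a library total of 1000000. Differences were tested with edgeR 4.0.16 (R 4.3.3): TMM factors, filterByExpr (minimum count 10, minimum total 15), quasi-likelihood F test on treatment, Benjamini-Hochberg adjustment over 11144 genes, threshold 0.05. The biological coefficient of variation was 0.861. Alternatives used other factors or filters, DESeq2 1.42.0, limma-voom (limma 3.58.1), a replicate block and each library left out. Ratios had exact permutation tests. Positions and exon lengths are from GENCODE M21 (GRCm38) and promoters from RefSeq (GRCm38.p6). Companion genes were named as the 2 of each list with the smallest p. A gene that this rule names is not reported here. Members and lists were chosen with earlier results of these data known.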

Additional observations from a re-analysis of the deposited data

How the results depend on the processing

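edgeR, DESeq2 and limma-voom called 0 of the 10 chaperones under each alternative run, and the smallest adjusted p of any member was 0.846, for Hspd1 and Hspe1 without 15C4 replicate 1. The number of genes called overall was 0 with edgeR, 1 without a filter on low counts and 26 with DESeq2. Of 160 alternative log2 fold changes of the members, 151 kept their direction and 9 reversed, all 9 when a library was left out. With all 6 libraries, the tools differed in size: Hspb1 was at -0.01, Hsph1 at -0.82 and Hspa1a at 0.31 with limma-voom, and with its sample weights Dnajb1 was at 1.24, Hspe1 at 0.40, Hspd1 at 0.30 and Hspa1b at 0.30. Hspa8 was at 0.01 and Hsp90ab1 at -0.15 with upper quartile factors, and both those factors and library totals put Hsp90aa1 at 0.06. With each library left out in turn, the range was -0.15 to 0.63 for Hspa1a, -0.13 to 0.55 for Hspa1b (-0.01 without IgG replicate 3), -1.09 to 0.46 for Hspb1, -0.24 to 0.87 for Dnajb1, -1.02 to 0.20 for Hsph1, -0.33 to 0.07 for Hsp90ab1 (0.06 without 15C4 replicate 3) and -0.08 to 0.86 for Hspd1. Hspa8, Hsp90aa1 and Hspe1 stayed above 0 in those fits. With the replicate number as a replicate block, 0 chaperones and 0 genes were called, and Hsph1 was at -0.99. Same-numbered libraries correlated at -0.0357, 0.0633 and 0.101 in their deviations from the group means, and not every library correlated best with its own number. Scaling by TMM factors moved 2 of 20 mean CPM values by over 1 SD, Hspa8 to 691.9 and Hsp90ab1 to 1609 CPM in IgG. Counting 2 heat shock units in place of 3 gave 6 in place of 3 genes with a match. With 3 libraries a group, the intervals are wide, and changes within them were not detectable.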

Other observations

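The authors' deposited table gives its own fold changes as IgG over 15C4, and it called none of the 10 chaperones. In the authors' deposited table the log2 fold change was -0.861 for Hspe1 (adjusted p = 0.543) and -0.618 for Hspd1 (adjusted p = 0.717), the largest of the 10 in size, and 0.61 for Hspb1 (adjusted p = 0.905). Its sign, once turned to 15C4 over IgG, was that of the edgeR fit for all 10. The mean level (baseMean) in the authors' deposited table was not within 0.5 of the mean of the 6 normalised values beside it for any of the 10 chaperones, and was within 0.5 for 1529 of 15712 genes with a mean above 0. For Hspb1 the authors' deposited table has a baseMean of 357.1, against a mean of 57.0 for the 6 normalised values. No source used here says which libraries that table's mean covers. The raw counts in that table and in the per-library counts were equal for all 24394 shared symbols.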
